A study of Mus musculus with 8 samples.

Results

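The Wnt genes of mouse embryonic stem cells (mESCs) were followed through 6 days of neural differentiation, with and without PCGF5, a RING finger subunit of a noncanonical Polycomb repressive complex 1. The 54 genes were taken by symbol alone, as the Wnt ligands, the R-spondins and their Lgr receptors, the Frizzled receptors, Lrp5 and Lrp6, the secreted antagonists of the Dkk and Sfrp families, Axin1 and Axin2, Ctnnb1, the 4 TCF/LEF factors and Sp5. They are 54 of the 24849 genes listed. No cut on a measured value was used, but the choice was made with earlier results of these data known. Wild type cells were the MPI-II line of strain 129S2/SvPas, and Pcgf5-/- cells were derived from it with a TALEN pair aimed at exon 2, a puromycin and G418 double selection and the picking of single colonies. Which colony gave the sequenced Pcgf5-/- samples is not given in the sources used here. PolyA RNA was sequenced from 2 samples in each of 4 groups, wild type at day 0, Pcgf5-/- at day 0, wild type at day 6 and Pcgf5-/- at day 6, and the samples of a group are called #1 and #2.

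The media bear directly on these genes. At day 0 both genotypes grew on feeder cells in serum with LIF and the 2i inhibitors PD0325901 and CHIR99021, and the latter inhibits GSK3 and so turns on β-catenin signalling. For differentiation both genotypes were moved to N2B27, a serum-free medium. A difference between day 6 and day 0 is therefore a difference between media as well as days, and these cannot be told apart. The study calls its samples independent biological samples, and with 2 per group the p-values rest on the spread that all 8 samples share.

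Wnt ligands are secreted lipid-modified proteins. They bind a Frizzled receptor together with LRP5 or LRP6 and thereby stop the destruction complex, which holds AXIN and GSK3, from marking β-catenin for degradation. β-catenin, the product of Ctnnb1, then enters the nucleus and joins TCF/LEF factors on target genes such as Axin2 and Sp5. R-spondins, through LGR4, LGR5 and LGR6, keep Frizzled receptors at the cell surface, SFRP proteins bind Wnt ligands outside the cell, and several DKK proteins block LRP5 and LRP6. In the early embryo the pathway patterns the primitive streak and later the dorsal neural tube and the midbrain, and in mESCs grown in 2i its activation supports self-renewal, in part by relieving repression by TCF7L1.

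Levels are given as FPKM, fragments sequenced from a transcript scaled for its length and for library size. A gene entered the tests where any of the 4 groups had a mean above 1 FPKM. This left 38 of the 54 genes and 13214 of all genes. Of the 38, 20 were over 1 FPKM in all 4 groups, 9 only at day 6 (Fzd3, Rspo1, Wnt1, Wnt3, Wnt4, Wnt7a, Wnt7b, Wnt8a and Dkk1) and 2 only at day 0 (Dkk2 and Sp5), so for these 11 the day difference is partly set by the filter. In exactly 1 group 4 genes were over 1 FPKM, Wnt1, Wnt4 and Dkk1 in wild type and Wnt3 in Pcgf5-/-, each at day 6. Their genotype difference at day 6 is therefore partly set by the filter as well. Differences are on the log2(FPKM + 1) scale with their standard error (SE). They come from limma with Benjamini-Hochberg adjustment over all tested genes and a threshold of 0.05, and the scale understates ratios of low values.

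The knockout was visible in its target. Pcgf5 was at 5.18 and 3.63 FPKM in wild type and 1.28 and 1.84 in Pcgf5-/- at day 0, and at 9.16 and 5.06 against 0.669 and 0.457 at day 6. The fall was -2.33 ± 0.28 at day 6 (adjusted p = 0.00421). At day 0 the difference of -1.07 ± 0.28 did not pass (adjusted p = 0.105), although the samples of the genotypes did not overlap. The relative depth of the 8 samples, read from their low FPKM values, differed by at most 1.30 times. Pluripotency markers summed to between 2387 and 2551 FPKM at day 0, 542 and 301 in wild type at day 6 and 1371 and 1339 in Pcgf5-/- at day 6. Neural progenitor markers summed to between 226 and 312 FPKM at day 0, 867 and 897 in wild type at day 6 and 372 and 367 in Pcgf5-/- at day 6. Most of the day 0 sum was Vim, at 201 to 282 FPKM, which was at 155 and 134 in Pcgf5-/- at day 6. Over the days 11 of these 12 genes rose and 0 fell in wild type. In Pcgf5-/- 10 rose and 1 fell, where 21.9% and 10.4% of all tested genes did. All 12 were lower in Pcgf5-/- than in wild type at day 6. Neuron markers summed to between 166 and 219 FPKM at day 0, 579 and 417 in wild type at day 6 and 211 and 196 in Pcgf5-/- at day 6. Over the days 10 of these 12 genes rose and 1 fell in wild type, and 6 rose and 1 fell in Pcgf5-/-. Stmn2 weighs on this sum, at 90.0 to 132.0 FPKM at day 0 and 36.2 and 32.3 in Pcgf5-/- at day 6. At day 6, 7 of the 12 were lower in Pcgf5-/- and 0 higher. Wild type #1 of day 6 stood apart in the 11 primitive endoderm markers, which summed to 106.6 FPKM there, 17.0 in wild type #2, 29.5 and 11.8 in Pcgf5-/- and at most 13.1 at day 0. At day 6 the midbrain and hindbrain markers summed to 33.8 and 23.4 FPKM in wild type and 46.2 and 27.1 in Pcgf5-/-, those of the dorsal neural tube and neural crest to 41.2 and 45.0 against 59.1 and 34.1, and those of the primitive streak to 9.88 and 4.04 against 8.78 and 3.75. In bulk RNA, fewer cells of a type and less RNA per cell cannot be told apart, and this applies to each gene below. On chromosomes 6 and 11 the median gene was higher in Pcgf5-/- by 0.41 and 0.48 at day 0 and by 0.37 and 0.38 at day 6, against 0.11 and 0.02 over all genes at these days. Tcf7l1, Lrp6, Wnt7a and Wnt5b among the tested genes lie on chromosome 6, and Tcf7, Axin2, Fzd2, Wnt3 and Wnt9a on chromosome 11.

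RefSeq promoter windows (build GRCm38.p6, 250 bases before to 50 after an annotated start) were found for 36 of the 54 genes, with 45 windows. A TCF/LEF word, CTTTGAA or CTTTGAT on either strand, was in 4 of these 45 windows (8.89%) and in 8.65% of all 32851 windows. It was thus about as common near the Wnt genes as over all windows. The 4 belong to Sp5, Dkk1, Wnt11 and an internal start of Wnt5b. Of the windows of all tested genes 5.72% held the word. The tested Wnt genes have 33 windows, among them those of Sp5, Dkk1 and Wnt5b but not of Wnt11. The 45 windows held a median of 26 CpG dinucleotides, against 7 over all windows. Those of the tested members held a median of 24 against 20 for the windows of all tested genes. Below are the 250 bases upstream of 6 genes that the results turn on, each 5′ to 3′ on the strand of the gene. The first pair is shown for the TCF/LEF word, in capitals, which starts 104 bases before the start of Sp5 and 117 bases before that of Dkk1. The other 4 are shown with CpG dinucleotides in capitals, since Lef1 and Tcf7l1 were higher and Wnt7a and Fzd1 lower in Pcgf5-/- at day 6. They hold 11 (Lef1), 29 (Tcf7l1), 34 (Wnt7a) and 12 (Fzd1) CpG, so among these 4 a low and a high count occurred in each direction. CpG counts were not compared with direction over all called genes. For Lef1 the first of its 4 windows is shown.
Sp5, chr2:70474673-70474922, plus strand: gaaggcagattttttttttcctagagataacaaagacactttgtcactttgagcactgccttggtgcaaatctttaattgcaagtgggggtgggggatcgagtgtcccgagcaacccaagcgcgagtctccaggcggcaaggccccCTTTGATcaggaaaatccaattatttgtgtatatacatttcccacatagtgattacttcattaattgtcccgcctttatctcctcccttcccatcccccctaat
Dkk1, chr19:30549497-30549746, minus strand: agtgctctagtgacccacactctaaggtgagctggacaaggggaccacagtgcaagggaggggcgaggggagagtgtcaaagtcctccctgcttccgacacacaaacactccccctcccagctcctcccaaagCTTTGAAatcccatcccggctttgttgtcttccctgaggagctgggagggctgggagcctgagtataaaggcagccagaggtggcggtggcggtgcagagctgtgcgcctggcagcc
Lef1, chr3:131110047-131110296, plus strand: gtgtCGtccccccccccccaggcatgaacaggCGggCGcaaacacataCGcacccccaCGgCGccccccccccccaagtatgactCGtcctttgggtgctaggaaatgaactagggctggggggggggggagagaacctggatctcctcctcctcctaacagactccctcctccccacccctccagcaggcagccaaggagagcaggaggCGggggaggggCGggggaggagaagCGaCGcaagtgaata
Tcf7l1, chr6:72789046-72789295, minus strand: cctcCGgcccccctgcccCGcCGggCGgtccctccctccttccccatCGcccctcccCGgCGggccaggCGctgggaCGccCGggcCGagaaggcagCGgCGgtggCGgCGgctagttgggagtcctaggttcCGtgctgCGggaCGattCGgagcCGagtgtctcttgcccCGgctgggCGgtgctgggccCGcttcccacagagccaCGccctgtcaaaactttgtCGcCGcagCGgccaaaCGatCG
Wnt7a, chr6:91411354-91411603, minus strand: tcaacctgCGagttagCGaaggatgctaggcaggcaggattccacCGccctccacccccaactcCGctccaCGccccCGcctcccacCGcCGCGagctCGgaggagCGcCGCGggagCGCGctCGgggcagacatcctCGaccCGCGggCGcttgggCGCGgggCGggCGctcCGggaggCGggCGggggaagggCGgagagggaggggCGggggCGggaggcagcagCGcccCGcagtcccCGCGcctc
Fzd1, chr5:4758217-4758466, minus strand: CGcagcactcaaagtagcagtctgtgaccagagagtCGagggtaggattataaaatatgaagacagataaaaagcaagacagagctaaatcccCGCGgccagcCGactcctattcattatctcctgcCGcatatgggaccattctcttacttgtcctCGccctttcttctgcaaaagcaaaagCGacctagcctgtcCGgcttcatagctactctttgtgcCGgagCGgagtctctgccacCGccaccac

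At day 6 the Wnt genes differed between the genotypes in both directions, with 5 of 6 called Frizzled genes lower and all 3 called TCF/LEF genes higher in Pcgf5-/-. Of the 38 tested, 15 passed, against 16.6% of all tested genes. The 6 that were higher in Pcgf5-/-, against 9.57% of all genes, were Lef1, Tcf7, Tcf7l1, Wnt8a, Fzd5 and Sfrp4. The 9 that were lower, against 7.05% of all genes, were Fzd1, Fzd3, Fzd7, Fzd9, Fzd10, Wnt7a, Wnt7b, Sfrp1 and Sfrp2. The median difference of the 38 was -0.30, against 0.02 for all tested genes. The 38 include Wnt1, Wnt4, Dkk1 and Wnt3, which passed the minimum through a single group of day 6. With 2 samples per group the calls leaned on single samples. Without Pcgf5-/- #1 of day 6, 4 of the 15 were called (Fzd3, Fzd7, Sfrp1 and Wnt7a). Without Pcgf5-/- #2, 7 were called (Fzd3, Fzd5, Lef1, Sfrp1, Sfrp2, Tcf7 and Wnt7a). Without wild type #2, 5 of the 15 were called (Fzd3, Sfrp1, Tcf7, Wnt7a and Wnt7b) and Dkk1 in addition. Without wild type #1, 10 of the 15 were called, all but Fzd7, Sfrp2, Sfrp4, Tcf7l1 and Wnt8a, with Fzd8, Wnt1 and Wnt4 in addition, and without any 1 sample of day 0 only Wnt8a was lost. Fzd3, Sfrp1 and Wnt7a passed each time, and the direction of all 15 held each time.

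**Figure D1:**
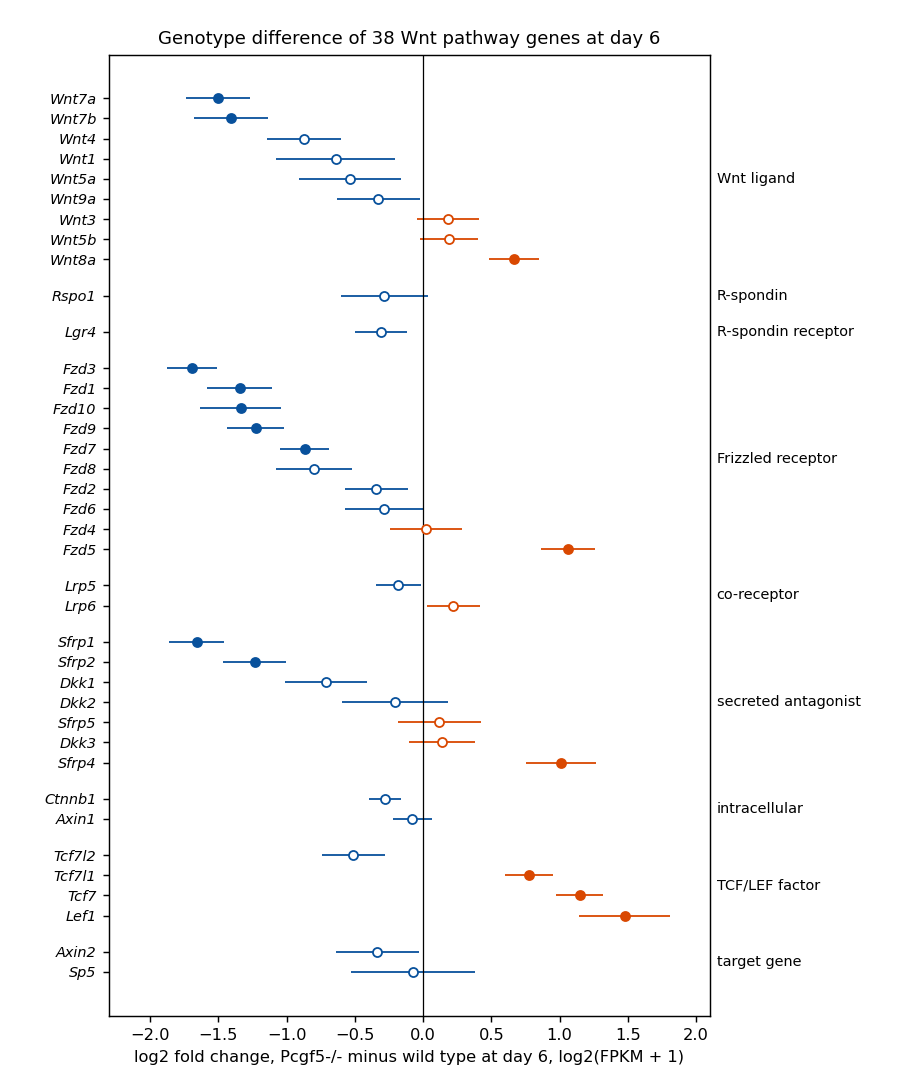
Difference between Pcgf5-/- and wild type at day 6 for the 38 tested Wnt genes, in log2(FPKM + 1), grouped by role. Points are the fitted difference and bars its SE, filled points passed the 0.05 threshold (15 genes), blue is lower and orange higher in Pcgf5-/-. Filled Frizzled points lie on the left apart from Fzd5, and filled TCF/LEF points lie on the right.

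At day 0 no Wnt gene passed between the genotypes, where 0.333% of all tested genes did (0.288% higher, 0.0454% lower) in limma. At an unadjusted p under 0.05 there were 7 of the 38, against 2294 of the 13214 tested genes, about the same share. All genes split into 1863 higher and 431 lower at that threshold. Among the 7, Sfrp2, Fzd9, Tcf7, Wnt5b and Lrp6 were higher and Sfrp1 and Fzd7 lower in Pcgf5-/-. Of these, Tcf7, Wnt5b and Lrp6 lie on chromosomes 6 and 11, which were raised as a whole. Sfrp1 had the smallest adjusted p, 0.0614, with a difference of -1.12 ± 0.20. All genes split into 38 higher and 6 lower, into 0 and 2 with a common median and into 0 and 3 after quantile normalization, and no Wnt gene passed under either.

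Over the 6 days far more Wnt genes changed. In wild type 24 of the 38 passed, against 50.5% of all genes. Of these, 20 rose (34.2% of all genes did) and 4 fell (16.2% of all genes did), namely Fzd5, Sfrp4, Dkk3 and Sp5. In Pcgf5-/- 21 passed, against 32.3% of all genes, 14 rising (21.9%) and 7 falling (10.4%). Both sets contained 17 genes, of which 16 moved the same way and Fzd9 rose in wild type and fell in Pcgf5-/-. In Pcgf5-/- 13 of the 21 were called without its #2 of day 0, 12 without its #1 of day 6 and 13 without its #2 of day 6, and Dkk3, Fzd10, Sp5 and Tcf7l2 were lost each time and also without its #1 of day 0. These splits depend on scale, since the median over all genes rose as well, by 0.22 (wild type) and 0.13 (Pcgf5-/-). With each sample set to a common median, the Wnt genes split into 13 rising and 7 falling in wild type and 12 and 10 in Pcgf5-/-, and all genes into 2745 and 4176 in wild type and 1960 and 2117 in Pcgf5-/-. After quantile normalization the Wnt genes split into 15 and 6 in wild type and 13 and 9 in Pcgf5-/-, and all genes into 3181 and 3020 and into 1961 and 1734.

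The genotype effect itself differed between the days for 5 Wnt genes, against 3.09% of all tested genes (1.34% in the higher direction, 1.75% in the lower). All 5 rose less, or fell, in Pcgf5-/-, and they were Fzd1, Fzd3, Fzd9, Sfrp2 and Wnt7a. With a common median there were 2 in the higher direction and 4 in the lower, with all genes at 339 and 145 in place of 177 and 231, and after quantile normalization 2 and 5, with all genes at 307 and 225. These calls were the least steady of the 5 comparisons. None of the 5 was called without wild type #2 of day 0, Pcgf5-/- #2 of day 0, wild type #2 of day 6, or either Pcgf5-/- sample of day 6. Without wild type #1 of day 0 or #1 of day 6, 2 of the 5 were called, Fzd3 and Fzd9, and without Pcgf5-/- #1 of day 0 4 were.

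**Figure D2:**
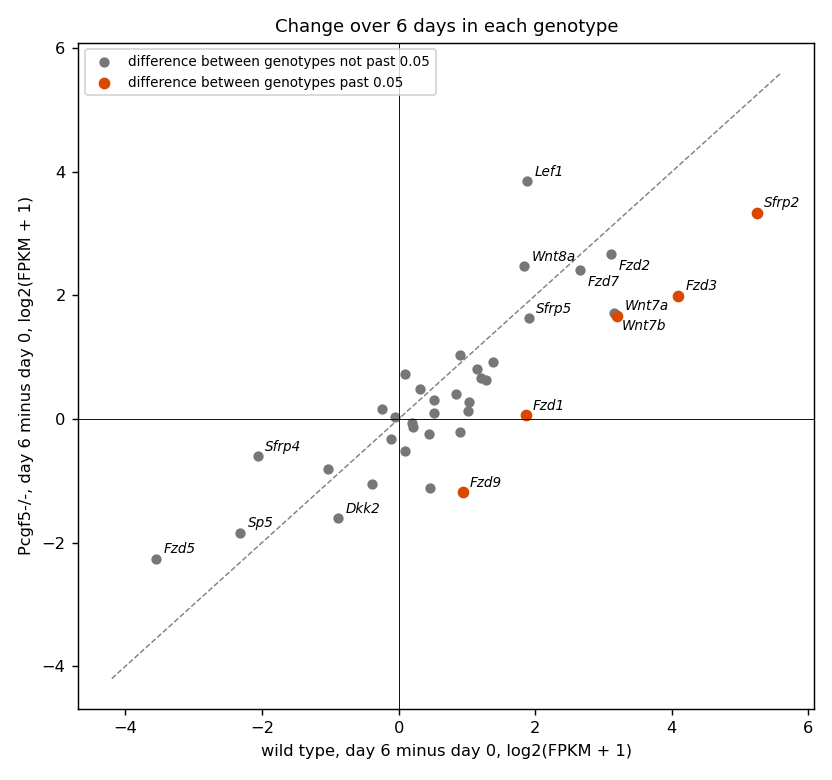
Change from day 0 to day 6 in wild type (horizontal) and in Pcgf5-/- (vertical) for the 38 tested Wnt genes, both in log2(FPKM + 1). Each point is a gene, the dashed line marks equal change, and orange marks the 5 genes whose change differed between the genotypes past 0.05. These 5 lie below the line, and Lef1 lies farthest above it.

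Among the ligands, Wnt7a and Wnt7b were the most abundant at day 6 and were lower in the knockout. Both signal in the developing nervous system. Wnt7a was at or below 0.0599 FPKM in all 4 day 0 samples, at 10.8 and 6.60 in wild type at day 6 and at 2.56 and 2.14 in Pcgf5-/-. It rose in both genotypes, and the day 6 groups did not overlap, 3.70-fold apart in mean FPKM. The difference at day 6 was -1.50 ± 0.23 (adjusted p = 0.00814), on a chromosome whose median gene was higher in Pcgf5-/-, and the effect differed between the days by -1.53 ± 0.33 (adjusted p = 0.0493). Wnt7b was at or below 0.117 FPKM in all day 0 samples, at 11.9 and 6.12 in wild type at day 6 and at 2.73 and 2.51 in Pcgf5-/-. Its difference at day 6 was -1.41 ± 0.27 (adjusted p = 0.0137), and for both genes the first wild type sample was the higher. The changes over days were 3.20 ± 0.23 and 1.67 ± 0.23 for Wnt7a in wild type and Pcgf5-/-, and 3.16 ± 0.27 and 1.71 ± 0.27 for Wnt7b.

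Wnt8a, a ligand of the gastrulating embryo, went the other way. It was at or below 0.0937 FPKM at day 0, at 2.40 and 3.12 in wild type at day 6 and at 5.36 and 4.53 in Pcgf5-/-. It rose in both genotypes (1.84 ± 0.18 and 2.47 ± 0.18), and the day 6 groups did not overlap. The day 6 difference of 0.66 ± 0.18 just passed (adjusted p = 0.0429) and was lost when any 1 of the 8 samples was left out, with adjusted p up to 0.176. At day 6 the Wnt7a and Wnt7b level was thus lower and the Wnt8a level higher in Pcgf5-/-, and the summed FPKM of all 19 ligand genes was 31.9 ± 4.03 (SD, n = 2) in wild type and 17.0 ± 2.30 in Pcgf5-/-.

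The remaining ligands were low. Wnt3, needed for the primitive streak, was at most 0.0612 FPKM at day 0, at 1.22 and 0.634 in wild type at day 6 and at 1.55 and 0.828 in Pcgf5-/-. It rose in both genotypes (0.90 ± 0.22 and 1.04 ± 0.22, adjusted p = 0.0109 and 0.0103), and the day 6 groups overlapped. Wnt1, a midbrain and dorsal neural tube ligand, was at most 0.0286 FPKM at day 0, at 0.497 and 3.02 in wild type at day 6 and at 0.178 and 1.11 in Pcgf5-/-. In each genotype #2 was the higher by far, and the rise in wild type of 1.28 ± 0.44 (adjusted p = 0.0392) was lost in 5 of the 8 fits that left out a sample. Wnt4 was at 0.763 and 0.585 FPKM in wild type and 0.754 and 1.21 in Pcgf5-/- at day 0, and at 1.40 and 3.09 against 0.840 and 0.588 at day 6. It rose in wild type (0.91 ± 0.27, adjusted p = 0.023), a call lost in 3 of those fits. Wnt9a was at 2.75 and 1.04 FPKM in wild type and 1.91 and 3.23 in Pcgf5-/- at day 0, and at 1.19 and 1.06 against 0.673 and 0.710 at day 6. It fell in Pcgf5-/- (-1.05 ± 0.30, adjusted p = 0.0308), a call lost in 3 of the 8 fits. Wnt5a, between 0.723 and 2.71 FPKM, and Wnt5b, between 0.603 and 2.52 FPKM, passed in no comparison. The other 10 ligands were under the minimum. Their highest single values were 1.42 FPKM for Wnt11, 0.708 for Wnt6, 0.701 for Wnt3a, 0.536 for Wnt2b, 0.313 for Wnt8b, 0.304 for Wnt16, 0.184 for Wnt10b, 0.129 for Wnt2, 0.0652 for Wnt10a and 0.0479 for Wnt9b.

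Several ligand genes are neighbours, with no listed gene between them on the mm9 coordinates of the files. Wnt3 and Wnt9b lie 24.4 kb apart on chromosome 11, and only Wnt3 reached 1 FPKM in a sample. Wnt9a and Wnt3a lie 16.2 kb apart on the same chromosome, and Wnt9a alone passed the minimum. Wnt1 lies 11.7 kb from Wnt10b on chromosome 15, and Wnt10b stayed under 0.2 FPKM where Wnt1 reached 3.02. Wnt6 and Wnt10a lie 6.70 kb apart on chromosome 1, and neither passed. In each pair with a tested gene, only 1 of the neighbours was therefore above the minimum.

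**Figure D3:**
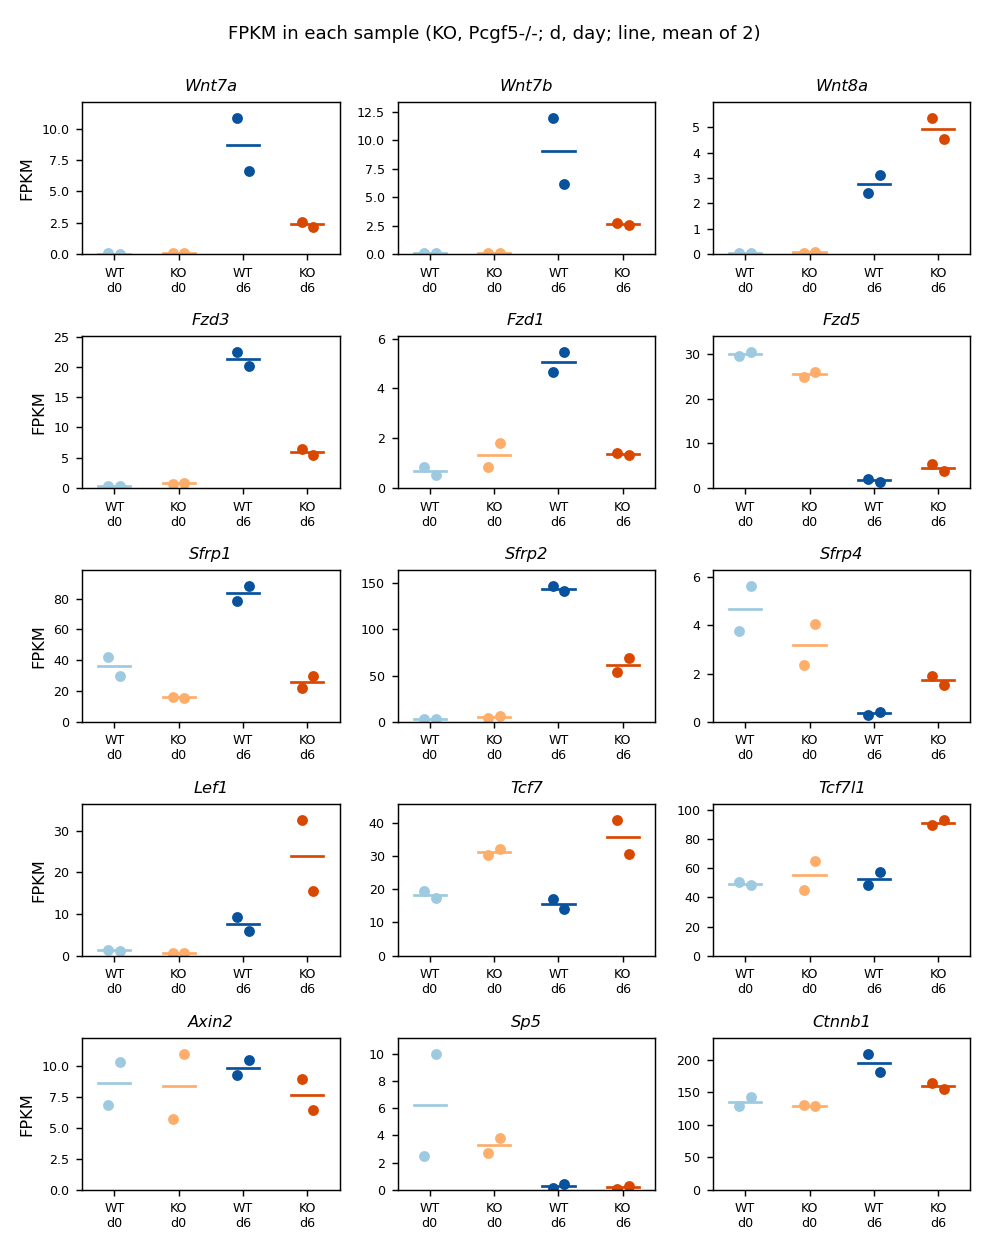
FPKM in each of the 8 samples for 15 Wnt genes on linear axes that start at 0, with wild type in blue, Pcgf5-/- in orange, paler at day 0, and a line at the mean of the 2 samples. Wnt7a, Wnt7b, Fzd1, Fzd3, Sfrp1 and Sfrp2 are lower and Wnt8a, Fzd5, Sfrp4, Lef1, Tcf7 and Tcf7l1 higher in Pcgf5-/- at day 6, and the Axin2 points overlap between the days.

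The R-spondins and their receptors showed no difference between the genotypes that passed. Rspo1 was at 0.323 and 0.683 FPKM in wild type and 0.253 and 1.17 in Pcgf5-/- at day 0, and at 1.10 and 2.39 against 1.08 and 1.31 at day 6, and passed in no comparison. Rspo3 reached 1.27 FPKM in wild type #1 of day 0 and was at or below 0.457 in every other sample, Rspo2 reached 0.614 and Rspo4 0.154. Lgr4 was by far the most abundant of the 3 receptor genes. It was at 12.4 and 15.5 FPKM in wild type and 15.2 and 13.2 in Pcgf5-/- at day 0, and at 37.4 and 27.2 against 27.6 and 23.7 at day 6. It rose in wild type (1.15 ± 0.19, adjusted p = 0.00163) and in Pcgf5-/- (0.81 ± 0.19, adjusted p = 0.0149), and the genotypes overlapped at both days. Lgr5, a target of the pathway in several tissues, was at most 1.20 FPKM and Lgr6 at most 0.226, and neither was tested.

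The Frizzled receptor genes changed their make-up over the 6 days in both genotypes. At day 0 Fzd5 alone made up 51.1% ± 5.12 (SD, n = 2) of the summed Frizzled FPKM in wild type and 43.2% ± 0.725 in Pcgf5-/-. At day 6 it made up 1.19% ± 0.494 and 5.66% ± 0.836, and Fzd7 and Fzd2 were the most abundant. The sum of the 10 genes was 58.9 ± 4.67 FPKM in wild type and 59.1 ± 2.75 in Pcgf5-/- at day 0, and 143.7 ± 18.2 against 80.2 ± 7.13 at day 6. Of the 10 genes, 5 were lower and 1 was higher in Pcgf5-/- at day 6, where 7.05% of all tested genes were lower and 9.57% higher. Over the days 7 rose and 1 fell in wild type, where 34.2% and 16.2% of all genes did, and 3 rose and 3 fell in Pcgf5-/-, where 21.9% and 10.4% did.

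**Figure D4:**
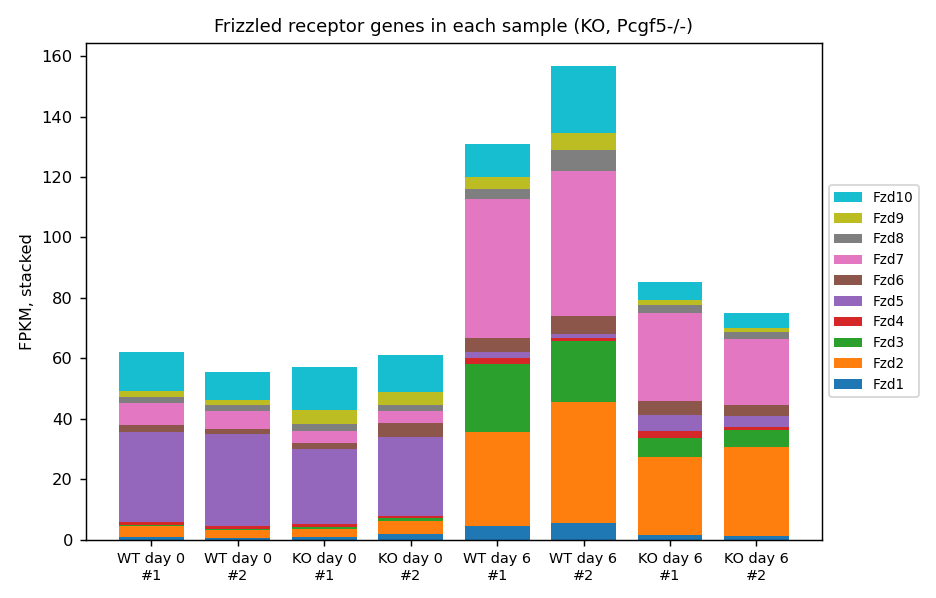
FPKM of the 10 Frizzled genes stacked in each of the 8 samples, 1 colour per gene. The bars of day 0 are about equal in height and more than 40% of each is Fzd5 (purple), and at day 6 the wild type bars are the tallest, with Fzd3 (green) taller than in Pcgf5-/-.

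Fzd3, a receptor of axon guidance and planar polarity, had the smallest adjusted p of the 38 tested Wnt genes between the genotypes at day 6. It was at 0.346 and 0.265 FPKM in wild type and 0.605 and 0.855 in Pcgf5-/- at day 0, and at 22.4 and 20.2 against 6.37 and 5.43 at day 6. All 4 groups lay apart. The day 6 level was 3.61-fold lower in Pcgf5-/- (-1.69 ± 0.18, adjusted p = 0.00393), and the effect differed between the days by -2.10 ± 0.26 (adjusted p = 0.0243). The rise over the days was 4.09 ± 0.18 in wild type and 2.00 ± 0.18 in Pcgf5-/-.

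Fzd1 and Fzd9 lie on chromosome 5, as does Fzd10, and all 3 were lower in Pcgf5-/- at day 6. Fzd1 was at 0.828 and 0.511 FPKM in wild type and 0.841 and 1.82 in Pcgf5-/- at day 0, and at 4.64 and 5.45 against 1.42 and 1.34 at day 6. It rose in wild type (1.86 ± 0.24, adjusted p = 0.000435), and in Pcgf5-/- the change was 0.06 ± 0.24. Its genotype difference was -1.34 ± 0.24 at day 6 (adjusted p = 0.0111), and it differed between the days by -1.80 ± 0.34 (adjusted p = 0.0374). Fzd9, by contrast, changed in opposite directions. It was at 2.18 and 1.61 FPKM in wild type and 4.43 and 4.32 in Pcgf5-/- at day 0, and at 3.76 and 5.42 against 1.47 and 1.26 at day 6. It rose by 0.94 ± 0.21 in wild type (adjusted p = 0.00665) and fell by 1.19 ± 0.21 in Pcgf5-/- (adjusted p = 0.00464). The higher day 0 level in Pcgf5-/- did not pass (0.90 ± 0.21, adjusted p = 0.0825), the lower day 6 level did (-1.23 ± 0.21, adjusted p = 0.0104), and the effect differed between the days by -2.13 ± 0.30 (adjusted p = 0.0251). In wild type the rise of Fzd9 was lost after quantile normalization and with a common median. Fzd10 was at 12.9 and 9.44 FPKM in wild type and 14.4 and 12.2 in Pcgf5-/- at day 0, and at 10.97 and 22.1 against 6.04 and 5.15 at day 6. The wild type samples of day 6 overlapped those of day 0, whereas Pcgf5-/- fell (-1.12 ± 0.30, adjusted p = 0.0238). Its genotype difference at day 6 of -1.34 ± 0.30 (adjusted p = 0.0222) was lost in 3 of the fits that left out a sample.

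Fzd7 and Fzd2 carried most of the Frizzled RNA at day 6. Fzd7, which is known as a receptor of stem cells, was at 7.29 and 5.97 FPKM in wild type and 3.68 and 4.23 in Pcgf5-/- at day 0, and at 46.1 and 48.0 against 29.2 and 21.96 at day 6. It rose in both genotypes (2.66 ± 0.18 and 2.41 ± 0.18) and was lower in Pcgf5-/- at day 6 by -0.87 ± 0.18 (adjusted p = 0.0173), and the groups lay apart at both days. Fzd2 was at 3.70 and 2.75 FPKM in wild type and 2.72 and 4.44 in Pcgf5-/- at day 0, and at 31.1 and 40.1 against 26.0 and 29.4 at day 6. It rose in both genotypes (3.11 ± 0.23 and 2.67 ± 0.23) and did not pass between them.

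Fzd5, the leading Frizzled gene of day 0, was the 1 that was higher in the knockout at day 6. It was at 29.6 and 30.4 FPKM in wild type and 25.0 and 26.1 in Pcgf5-/- at day 0, and at 2.02 and 1.32 against 5.33 and 3.81 at day 6. It fell in both genotypes (-3.55 ± 0.20 and -2.26 ± 0.20), and at day 6 the groups lay apart, with a difference of 1.06 ± 0.20 (adjusted p = 0.0125). The difference of the effect between the days, 1.29 ± 0.28, just missed (adjusted p = 0.0507) and passed under 7 of the alternatives, among them both normalizations. Fzd6 was at 2.30 and 1.74 FPKM in wild type and 2.12 and 4.53 in Pcgf5-/- at day 0, and at 4.47 and 5.85 against 4.51 and 3.58 at day 6. Fzd8 was at 1.98 and 1.91 FPKM in wild type and 2.48 and 1.80 in Pcgf5-/- at day 0, and at 3.48 and 6.98 against 2.65 and 2.22 at day 6. Both rose in wild type (1.03 ± 0.29, adjusted p = 0.0182, and 1.02 ± 0.28, adjusted p = 0.016), calls lost after quantile normalization and with a common median. Fzd4 stayed between 0.785 and 2.25 FPKM and passed in no comparison.

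The co-receptors changed little. Lrp5 was at 10.2 and 10.4 FPKM in wild type and 7.47 and 9.32 in Pcgf5-/- at day 0, and at 9.31 and 10.5 against 8.71 and 8.46 at day 6. Lrp6 was at 7.94 and 7.25 FPKM in wild type and 12.5 and 12.3 in Pcgf5-/- at day 0, and at 13.0 and 9.80 against 15.4 and 11.5 at day 6. Neither passed in any comparison, and the day 0 groups of Lrp6, on chromosome 6, lay apart with a difference of 0.64 ± 0.19 (adjusted p = 0.138).

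Of the secreted antagonists, Sfrp1 and Sfrp2 were the most abundant and were both lower in Pcgf5-/- at day 6. Sfrp1 was at 42.3 and 29.98 FPKM in wild type and 16.4 and 15.3 in Pcgf5-/- at day 0, and at 78.7 and 88.0 against 21.9 and 30.05 at day 6. The groups lay apart at both days, 2.28-fold at day 0 and 3.21-fold at day 6, and the day 6 difference was -1.66 ± 0.20 (adjusted p = 0.00421). It rose in wild type (1.20 ± 0.20, adjusted p = 0.00161) and in Pcgf5-/- (0.66 ± 0.20, adjusted p = 0.037), the latter lost in 5 of the 8 fits that left out a sample. Sfrp2 was at 3.01 and 2.67 FPKM in wild type and 3.78 and 6.81 in Pcgf5-/- at day 0, and at 146.6 and 141.6 against 53.6 and 68.7 at day 6. It had the largest rise of the tested Wnt genes in wild type, 5.24 ± 0.23, and rose by 3.34 ± 0.23 in Pcgf5-/-. At day 6 it was lower in Pcgf5-/- by -1.23 ± 0.23 (adjusted p = 0.013) and the effect differed between the days by -1.91 ± 0.33 (adjusted p = 0.0315).

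Sfrp4 and Sfrp5 took other courses. Sfrp4 was at 3.77 and 5.62 FPKM in wild type and 2.35 and 4.05 in Pcgf5-/- at day 0, and at 0.296 and 0.405 against 1.90 and 1.54 at day 6. It fell in wild type (-2.06 ± 0.26, adjusted p = 0.000374), the change in Pcgf5-/- was -0.60 ± 0.26 (adjusted p = 0.107), and at day 6 it was higher in Pcgf5-/- (1.009 ± 0.26, adjusted p = 0.0332). The fall in Pcgf5-/- passed with a common median and after quantile normalization, and the day 6 call was lost in 4 of the fits that left out a sample. Sfrp5 was at 0.544 and 0.657 FPKM in wild type and 0.695 and 1.60 in Pcgf5-/- at day 0, and at 3.98 and 6.18 against 7.11 and 4.20 at day 6. It rose in both genotypes (1.90 ± 0.31 and 1.63 ± 0.31), and these overlapped at day 6.

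The Dkk genes were low and fell where they passed. Dkk2 was at 2.50 and 0.753 FPKM in wild type and 1.48 and 4.04 in Pcgf5-/- at day 0, and at 0.295 and 0.396 against 0.158 and 0.172 at day 6. It fell in Pcgf5-/- (-1.60 ± 0.39, adjusted p = 0.0162), a call lost in 3 of the fits that left out a sample. Dkk3 was at 4.21 and 2.44 FPKM in wild type and 3.18 and 2.78 in Pcgf5-/- at day 0, and at 1.16 and 0.971 against 1.52 and 1.04 at day 6. It fell in wild type (-1.04 ± 0.24, adjusted p = 0.00756) and in Pcgf5-/- (-0.81 ± 0.24, adjusted p = 0.0341). Markers of fibroblasts, the kind of cell used as feeders, also fell in sum over the days. Their 20 genes summed to 449 and 263 FPKM in wild type and 291 and 846 in Pcgf5-/- at day 0, with none at 0 in all samples, and to 55.4 and 73.9 against 34.9 and 33.8 at day 6. Of the 20, 14 fell and 1 rose in wild type and 16 fell in Pcgf5-/-. Dkk2, Wnt9a and the marker sum were each highest in the same 2 day 0 samples, wild type #1 and Pcgf5-/- #2. Dkk3 differed in Pcgf5-/-, with 3.18 FPKM in #1 and 2.78 in #2. The part of feeder cells in the levels of day 0 was not tested. Dkk1, a target of the pathway whose upstream sequence holds a TCF/LEF word, was at 0.845 and 0.577 FPKM in wild type and 0.233 and 0.396 in Pcgf5-/- at day 0. At day 6 it was at 1.79 and 0.396 against 0.243 and 0.164, and it passed in no comparison. The highest of these, wild type #1, was also the sample with the high primitive endoderm markers, whose part in the day 6 levels was not tested, and Dkk1 was not called without it. Dkk4 was at most 0.204 FPKM. The summed FPKM of the 8 antagonist genes was 49.97 ± 10.3 in wild type and 31.6 ± 4.80 in Pcgf5-/- at day 0, and 235.6 ± 3.70 against 96.2 ± 13.7 at day 6.

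Inside the cell, Ctnnb1 had the highest FPKM of the 54 genes in all 8 samples. It was at 128.7 and 143.2 FPKM in wild type and 130.2 and 129.4 in Pcgf5-/- at day 0, and at 209 and 181 against 165 and 155 at day 6. It rose in wild type (0.52 ± 0.12, adjusted p = 0.00739), a call lost with a common median, and in Pcgf5-/- the change was 0.30 ± 0.12 (adjusted p = 0.0852). The day 6 difference of -0.28 ± 0.12 did not pass (adjusted p = 0.144), and β-catenin protein, through which the pathway acts, was not measured here. Axin1, a scaffold of the destruction complex, stayed between 20.3 and 27.6 FPKM in all 8 samples and passed in no comparison.

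Of the 4 TCF/LEF genes, Lef1, Tcf7 and Tcf7l1 were higher in Pcgf5-/- past the threshold at day 6, and Tcf7l2 was not called. Lef1 was at 1.45 and 1.14 FPKM in wild type and 0.648 and 0.603 in Pcgf5-/- at day 0, and at 9.25 and 5.95 against 32.5 and 15.4 at day 6. The groups lay apart at both days in opposite order, lower in Pcgf5-/- at day 0 and 3.16-fold higher at day 6, and the 2 Pcgf5-/- samples of day 6 were far apart themselves. The day 6 difference of 1.48 ± 0.33 (adjusted p = 0.0232) was lost without Pcgf5-/- #1 or wild type #2 of day 6. Lef1 rose in both genotypes (1.88 ± 0.33 and 3.85 ± 0.33), and the difference of these rises, 1.97 ± 0.47, did not pass (adjusted p = 0.0632). It passed after quantile normalization and with either replicate block.

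Tcf7 was at 19.4 and 17.4 FPKM in wild type and 30.4 and 32.2 in Pcgf5-/- at day 0, and at 17.0 and 13.9 against 40.7 and 30.5 at day 6. Both Pcgf5-/- samples were higher than both wild type samples at each day, 1.70-fold at day 0 and 2.30-fold at day 6. The day 6 difference was 1.15 ± 0.17 (adjusted p = 0.00763), and that of day 0 was 0.74 ± 0.17 (adjusted p = 0.0825). Chromosome 11 had a median of 0.38 at day 6, and Tcf7 stayed called at day 6 with the chromosome medians removed. Tcf7l1, a repressor of pluripotency genes in mESCs, was at 50.5 and 48.2 FPKM in wild type and 45.2 and 65.3 in Pcgf5-/- at day 0, and at 48.4 and 57.5 against 89.4 and 92.9 at day 6. Its change over the days in wild type was 0.09 ± 0.18, negative with a common median, and it rose in Pcgf5-/- (0.74 ± 0.18, adjusted p = 0.0155), and the day 6 difference was 0.78 ± 0.18 (adjusted p = 0.0232). That call was lost with the chromosome medians removed, chromosome 6 having a median of 0.37, and in 4 of the fits that left out a sample.

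Tcf7l2 was at 4.69 and 2.64 FPKM in wild type and 3.58 and 3.23 in Pcgf5-/- at day 0, and at 11.3 and 10.5 against 6.78 and 7.92 at day 6. It rose in wild type (1.38 ± 0.23, adjusted p = 0.00161) and in Pcgf5-/- (0.92 ± 0.23, adjusted p = 0.0186), and the day 6 groups lay apart with a difference of -0.51 ± 0.23 that did not pass (adjusted p = 0.168). Together the 4 genes summed to 72.7 ± 4.77 FPKM in wild type and 90.5 ± 15.2 in Pcgf5-/- at day 0, and to 86.9 ± 1.32 against 158.1 ± 16.0 at day 6. Most of each sum was Tcf7l1 and Tcf7, which lie on chromosomes 6 and 11, raised as a whole in Pcgf5-/-.

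Axin2 and Sp5, the 2 genes grouped here as targets, did not pass between the genotypes at either day. This grouping does not hold every target of the pathway. Dkk1, counted with the antagonists, was not called, and Notum, counted below with Wnt secretion, was higher in Pcgf5-/- at day 6 (1.74 ± 0.37). Axin2, a feedback inhibitor widely read as a measure of β-catenin activity, was at 6.83 and 10.3 FPKM in wild type and 5.73 and 10.9 in Pcgf5-/- at day 0, and at 9.25 and 10.4 against 8.89 and 6.44 at day 6. Its day 0 and day 6 samples overlapped in both genotypes, the day 6 genotypes lay apart by a small margin, and none of the 5 comparisons passed. The day 6 difference was -0.33 ± 0.30 (adjusted p = 0.483), and in wild type the change from the medium with CHIR99021 to N2B27 was 0.20 ± 0.30 (adjusted p = 0.603), which turned negative under both normalizations. Sp5, a zinc finger factor induced by β-catenin, was at 2.51 and 9.96 FPKM in wild type and 2.71 and 3.79 in Pcgf5-/- at day 0, and at 0.108 and 0.394 against 0.0870 and 0.282 at day 6. It fell in wild type (-2.32 ± 0.46, adjusted p = 0.00359) and in Pcgf5-/- (-1.84 ± 0.46, adjusted p = 0.0178), the latter lost in 4 of the fits that left out a sample. The wild type samples of day 0 enclosed both of Pcgf5-/-. The Sp5 upstream sequence with its TCF/LEF word is given above, and the Axin2 window holds no such word in these letters.

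The other genes of the pathway were read from 6 lists with 87 genes, of which 86 are listed and 75 were tested. At day 6, 4 were higher and 14 lower in Pcgf5-/-, where 9.57% and 7.05% of all tested genes were. Frzb, another secreted antagonist related to the SFRPs, had a mean of 8.73 FPKM in wild type and 1.58 in Pcgf5-/- (-1.92 ± 0.18, adjusted p = 0.00361). Celsr2, a cadherin of planar polarity, had means of 14.8 and 4.40 FPKM (-1.55 ± 0.18, adjusted p = 0.00393), and Ror2, a receptor of WNT5A, of 6.96 and 2.31 FPKM (-1.26 ± 0.18). Id2, a helix-loop-helix inhibitor, had means of 62.7 and 23.4 FPKM (-1.37 ± 0.37). Notum, a secreted enzyme that removes the lipid from Wnt ligands and is itself a target in several tissues, was higher, at 1.11 against 6.35 FPKM (1.74 ± 0.37, adjusted p = 0.0185). The median difference over the 75 was -0.20.

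By list, against the same shares of all genes, 6 of the 23 tested genes of cytoplasmic signalling were lower and 1 higher. The list of co-receptors and receptor turnover also holds further secreted antagonists. Of its 11 tested genes 2 were lower, the receptor gene Ror2 and the antagonist gene Frzb. Of the 10 planar polarity genes 2 were lower, and of the 13 further genes known to respond to β-catenin 3 were lower and none higher. Of the 5 genes of Wnt secretion 2 were higher, among them Notum, which is not counted with the 13 genes that respond to β-catenin. Of the 13 nuclear co-factors 1 was higher and 1 lower. At day 0 none of the 75 passed. Over the days 37 rose and 8 fell in wild type, where 34.2% and 16.2% of all genes did, among them Sp8 (3.94 ± 0.17), a transcription factor, and Cd44 (-2.79 ± 0.45), a surface glycoprotein also expressed by fibroblasts. In Pcgf5-/- 20 rose and 7 fell, where 21.9% and 10.4% of all genes did, among them Cdx1 (-3.33 ± 0.43), a homeobox gene that responds to Wnt, and Aes (-1.99 ± 0.18), a TLE-related co-repressor. These changes were not particular to 1 genotype. Sp8 rose (2.81 ± 0.17) and Cd44 fell (-3.34 ± 0.45) in Pcgf5-/- as well. In wild type the mean of Cdx1 went from 5.85 to 0.109 FPKM and that of Aes from 110.3 to 18.8. The genotype effect differed between the days for 6, where 3.09% of all genes did, all with a smaller rise or a fall in Pcgf5-/-, led by Frzb (-1.95 ± 0.26), Celsr2 (-1.67 ± 0.25), Ror2 (-1.48 ± 0.26), Nkd1 (-1.34 ± 0.29), an inhibitor of Dishevelled, and Vangl2 (-1.21 ± 0.21), a planar polarity protein.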

How the data were processed

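The authors removed adapters, duplicate reads, short and low-quality reads, mapped what remained (TopHat2 2.0.4, genome mm9) and computed FPKM per gene with Cufflinks 2.1.1, per the labels and methods. The annotation is not given in the sources used here. The deposited FPKM values carry no read counts, so depth limits precision to an unknown degree. Samples were grouped by the labels' genotype and day. From the FPKM, log2(FPKM + 1) of genes with a mean over 1 in at least 1 of 4 groups was fitted in limma 3.58.1 (R 4.3.3), with group means of all 8 samples, a variance trend and no block, and 5 contrasts. The fit was also run on simulated data with known changes and independent noise. These held neither the chromosome shifts nor the shared deviations of same-numbered samples, so that run cannot speak to either. P-values are two-sided. The members, the lists and the naming rule (genes past the threshold in any contrast, 7 fixed genes and the highest of each role) were chosen with earlier results of these data known. Alternatives were pseudocounts of 0.1 and 5, an FPKM minimum of 5 or none, quantile normalization, a common median, replicate blocks, only the compared groups, no variance trend, removal of chromosome medians and leaving out each sample. Promoter sequences are RefSeq's, of GRCm38.p6. The other marker lists (neuron, dorsal neural tube and neural crest, primitive streak, primitive endoderm, midbrain and hindbrain) were summed in the same way. Tables were handled with Python 3.11.15 and pandas 2.3.3.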

Additional observations from a re-analysis of the deposited data

Results flagged for a closer look

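The difference of the genotype effect between day 6 and day 0, on the log2(FPKM + 1) scale, passed the threshold in limma for 5 genes. It was -1.80 for Fzd1, -2.10 for Fzd3, -2.13 for Fzd9, -1.91 for Sfrp2 and -1.53 for Wnt7a. For Fzd9 the genotypes were in opposite order at the 2 days, with Pcgf5-/- the higher at day 0 in both samples and the lower at day 6 in both. The groups are too small for a test of single outlying samples.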

How the results depend on the processing

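Of 65 called gene differences 31 stayed called under every alternative run, and none reversed. At day 6 without a filter 10 of the 15 kept their call, losing Fzd10, Lef1, Sfrp4, Tcf7l1 and Wnt8a, and with only the compared groups 12 did. The counts of called Wnt genes ran over 4 to 14 (genotype, day 6), 0 to 0 (genotype, day 0), 21 to 25 (days, wild type), 12 to 21 (days, Pcgf5-/-) and 0 to 4 (interaction) when each sample was left out, with main counts of 15, 0, 24, 21 and 5. A lone sample left in a group is then assumed to vary like the others. The day 0 count rose to 1 (Sfrp1) with a minimum mean of 5 FPKM and to 2 (Sfrp1, Tcf7) with a replicate block within each day. The interaction count was 3 with a pseudocount of 0.1, 1 without a filter and 9 with that block. With the replicate number as 1 block over both days the counts were 14, 0, 26, 21 and 7. Samples of the same number deviated together at day 6 (r = 0.39) and day 0 (r = 0.10) but not across days (-0.08 to -0.02). No label says what a number stands for, so no block was used in the main fit, and whether samples of a day share a culture or batch was not settled. Causes of these shifts were not tested.

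Of the 7 fixed genes, only differences that had not passed changed sign. With a common median these were Tcf7l1 at day 0 (-0.00959) and over days in wild type (-0.27), Axin2 over days in wild type (-0.16) and Tcf7 over days in Pcgf5-/- (-0.0156). Axin2 over days in wild type was -0.15 after quantile normalization. With chromosome medians removed Tcf7l1 at day 0 was -0.28 and Axin2 over days in Pcgf5-/- 0.039, and the latter was 0.34 with the replicate block within each day. Leaving out single samples gave, for the genotype at day 6, -0.24 to 0.091 for Sp5. For the genotype at day 0 it gave -0.12 to 0.40 for Tcf7l1, -0.37 to 0.28 for Tcf7l2, -0.48 to 0.34 for Axin2, -0.14 to 0.012 for Ctnnb1 and -1.38 to 0.27 for Sp5. For the days it gave -0.064 to 0.47 (Axin2) and -0.027 to 0.21 (Tcf7l1) in wild type, and -0.47 to 0.35 (Axin2) and -0.034 to 0.37 (Tcf7) in Pcgf5-/-. For the interaction it gave -0.68 to 0.15 for Axin2 and -0.34 to 1.30 for Sp5.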
